A study of Rattus norvegicus with 18 samples.

Results

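Mitochondrial ribosomal proteins are the nuclear-encoded proteins of the ribosome inside mitochondria. They were taken as the probe sets with 1 gene symbol that read Mrpl or Mrps followed by a digit, with 1 probe set kept for each gene, the one with the highest mean log2 signal over the 18 arrays. This gave 76 genes from 100 probe sets, out of 14217 genes with 1 symbol and 31042 probe sets on the array. By symbol, 49 of the genes were Mrpl and 27 Mrps, and 3 of them (mrpl9, mrpl11 and mrpl24) are written in lower case in the annotation and were kept. By their place in the mammalian particle, 51 belonged to the large and 25 to the small subunit, since Mrps18a and Mrps30 sit in the large subunit despite their names.

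The mitochondrial ribosome translates the few messages of mitochondrial DNA, all of them for core subunits of the respiratory chain and ATP synthase. Its ribosomal RNAs and tRNAs come from mitochondrial DNA, whereas every protein of the particle is made in the cytosol and imported. Many of these proteins have bacterial counterparts, and others exist only in mitochondria. Skeletal muscle, above all its oxidative fibres, is rich in mitochondria and depends on this ribosome for aerobic energy supply.

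RNA was measured in muscles of female Lewis rats with experimental autoimmune myasthenia gravis (EAMG), an antibody-mediated attack on the neuromuscular junction, and in muscles of control rats. The EAMG rats were 6 to 8 weeks old and received a single dose of 40 µg of acetylcholine receptor from the electric ray Torpedo californica. It was given in complete Freund's adjuvant (CFA), to which more dead Mycobacterium tuberculosis H37RA had been added. Control rats of the same strain, sex and age were given that adjuvant without receptor. The diaphragm (DIA, a respiratory muscle), extensor digitorum longus (EDL, a fast hindlimb muscle) and extraocular muscle (EOM, the rectus muscles that move the eye) were taken after 6 weeks, and each of the 6 groups has 3 arrays. RNA of several rats was pooled for each array, their number given as 3 in the labels and as 4 to 5 or as 4 in the methods, and the methods describe the 3 replicates as coming from repeats of the study. The spread between arrays is therefore that between pools, with any spread between repeats, and p-values measure only that. Whether the 3 muscles of a replicate number came from the same rats is not stated in the labels.

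Apart from the slow fibre genes on EDL EAMG array 2, described below, the labels of the muscles fitted their markers. All 13 measured genes of the muscle fibre list were at 400 signal units or more on every array of each group. The extraocular list, with 3 of its 5 genes measured, summed to 19084 to 29529 on the 6 EOM arrays, against 1672 to 3778 on the other 12. Several arrays stood apart. The poly-A control transcripts averaged 885 on DIA EAMG array 2 and 608 on EOM EAMG array 2, against 11604 to 28191 on the other arrays. For GAPDH, a measure of RNA integrity, the signal near the 3' end over that near the 5' end was 2.66 on DIA EAMG array 3 and 1.06 to 1.33 on the rest. The summed signal of slow fibre genes was 278075 on EDL EAMG array 2, against 84220 to 101503 on the other 5 EDL arrays. On the DIA arrays this sum was 191654 to 244693, so EDL EAMG array 2 lay above every DIA array. The calls were also made without each array in turn and without both arrays that were low in poly-A signal. All arrays held bulk muscle, in which fewer cells of a type and less RNA per cell cannot be told apart.

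To show what the members share at the start of their genes, the window of 250 bases before to 50 bases after the annotated start was read from RefSeq (rat build GRCr8) for the 62 members that the promoter table holds. Letters bound by 3 factors known to act on mitochondrial genes in mammals were searched on both strands: GCATGCGC for NRF-1, CCGGAAG for ETS factors such as GABP, and AAGATGGC for YY1. The last 3 letters of the ETS motif are the first 3 of the YY1 motif, and no member promoter held them overlapping in this way. The ETS letters were present in 20 of the 62 (32.3%), against 8.75% of all 33469 promoters in the table. The YY1 letters were present in 14 (22.6%), against 3.17% of all, and the NRF-1 letters in 5 (8.06%), against 2.47% of all. Of the 62 promoters, 32 held at least 1 of the 3 motifs and 30 held none. These matches are descriptions of letters and not of bound sites.

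The promoters of 4 members on which the results turn are printed 5′ to 3′ on the strand of the gene, with motif letters in capitals. Mrps6 (chr11:44778417-44778716, plus strand) had the largest difference between muscles, and Mrpl46 (chr1:142116981-142117280, minus strand) separated EDL from both other muscles. Mrpl42 (chr7:32028473-32028772, minus strand) and mrpl24 (chr2:175680825-175681124, plus strand) had the largest mean falls in EAMG. The YY1 letters begin 3 bases before the start of Mrps6, at base 25 of Mrpl46 and at base 20 of Mrpl42, and mrpl24 held none of the 3 motifs.
Mrps6: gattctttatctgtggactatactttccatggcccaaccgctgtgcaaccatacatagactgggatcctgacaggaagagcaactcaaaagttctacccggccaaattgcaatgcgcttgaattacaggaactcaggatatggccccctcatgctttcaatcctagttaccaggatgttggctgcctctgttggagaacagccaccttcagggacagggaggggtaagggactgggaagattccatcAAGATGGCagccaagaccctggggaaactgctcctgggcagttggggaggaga
Mrpl46: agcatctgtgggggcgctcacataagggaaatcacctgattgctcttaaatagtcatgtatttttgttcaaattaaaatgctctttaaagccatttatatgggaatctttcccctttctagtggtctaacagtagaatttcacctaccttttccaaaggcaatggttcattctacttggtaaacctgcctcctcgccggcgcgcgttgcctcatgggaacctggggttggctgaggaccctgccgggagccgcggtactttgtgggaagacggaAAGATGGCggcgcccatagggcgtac
Mrpl42: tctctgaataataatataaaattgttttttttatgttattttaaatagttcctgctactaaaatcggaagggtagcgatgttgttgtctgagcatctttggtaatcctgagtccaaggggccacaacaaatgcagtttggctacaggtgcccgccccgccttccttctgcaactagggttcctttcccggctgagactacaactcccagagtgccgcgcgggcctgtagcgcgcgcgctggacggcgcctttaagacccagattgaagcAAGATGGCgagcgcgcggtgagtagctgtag
mrpl24: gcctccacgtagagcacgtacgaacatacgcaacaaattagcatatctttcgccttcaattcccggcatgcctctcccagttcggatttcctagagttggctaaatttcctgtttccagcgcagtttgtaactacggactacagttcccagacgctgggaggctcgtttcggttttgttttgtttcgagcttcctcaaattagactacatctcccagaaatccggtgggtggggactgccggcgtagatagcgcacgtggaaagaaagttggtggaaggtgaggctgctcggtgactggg

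All 76 kept probe sets were at 400 units or more on all 18 arrays, so the filter on low signal (400 on at least 1 array, which left 12238 probe sets for the test) removed no member. Single signals ran between 457 (Mrps27 on DIA control array 2) and 9309 (Mrpl17 on EOM control array 1). By mean log2 signal the 3 brightest probe sets were those of Mrpl54, Mrpl17 and Mrpl15, and the 3 dimmest those of Mrps27, Mrpl10 and Mrpl46. Signals of different probe sets depend on their probes and are not compared further. The standard error of an EAMG change was 0.09 to 0.24 on the log2 scale over the members, with a median of 0.12, against a median of 0.17 over all tested probe sets.

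The first question was whether EAMG changed the messages of the mitochondrial ribosome in each muscle. Changes were small. No member changed by 2-fold in any muscle, and the 95% intervals of all 76 stayed between -0.91 and 0.87 on the log2 scale, which is less than 2-fold in either direction. limma called 0 of 76 members in DIA, 2 of 76 in EDL (1 higher, 1 lower) and 0 of 76 in EOM at an adjusted p under 0.05. An unadjusted p under 0.05 was reached in DIA by 2 members on the higher side and 5 on the lower, in EDL by 5 and 11, and in EOM by 2 and 10. With both sides together this was 9.21% of the members in DIA, 21.1% in EDL and 15.8% in EOM. Of all tested probe sets it was 19.9%, 23.7% and 13.1% in the same order. In EOM 732 of the 12238 probe sets reached it on the lower side and 873 on the higher. Over all 12238 probe sets tested, the share called higher in EAMG was 1.53% for DIA, 3.37% for EDL and 0.964% for EOM, and the share called lower was 1.15% for DIA, 3.22% for EDL and 0.531% for EOM. The counts of members called at an adjusted p under 0.05 were thus not above this background of calls.

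The 76 members had a median log2 change of -0.11 in EOM, where all 14217 genes with 1 symbol had -0.03. For DIA the medians were -0.06 for the members and -0.05 for all genes, and for EDL -0.05 and -0.01. All genes include many of low signal. Over the 6491 probe sets at 400 or more on every array, a condition that all members met, the median was -0.00 for EOM, 0.03 for DIA and 0.02 for EDL, so against these the members lay lower in all 3 muscles. The EDL median of the members was 0.01 without EDL control array 3. In EOM 61 of the 76 were below 0, in DIA 46 and in EDL 45, and 37 members were below 0 in all 3 muscles against 10 above 0 in all 3. Of all tested probe sets, 25.5% were below 0 in all 3 muscles and 25.5% above. On single arrays, the median member signal was 2165, 2083 and 2026 on the EOM EAMG arrays, against 2318, 2263 and 2466 on the EOM control arrays, and these groups did not overlap. It was 2298, 2166 and 2042 on the DIA EAMG arrays, against 2150, 2133 and 2449 on the DIA control arrays. On the EDL arrays it was 2208, 2041 and 2272 in EAMG, against 2021, 1988 and 2242 in control. In DIA and EDL the groups overlapped, and the EDL EAMG medians lay within or above the control range, although the median of the members' changes in EDL was below 0.

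**Figure D1:**
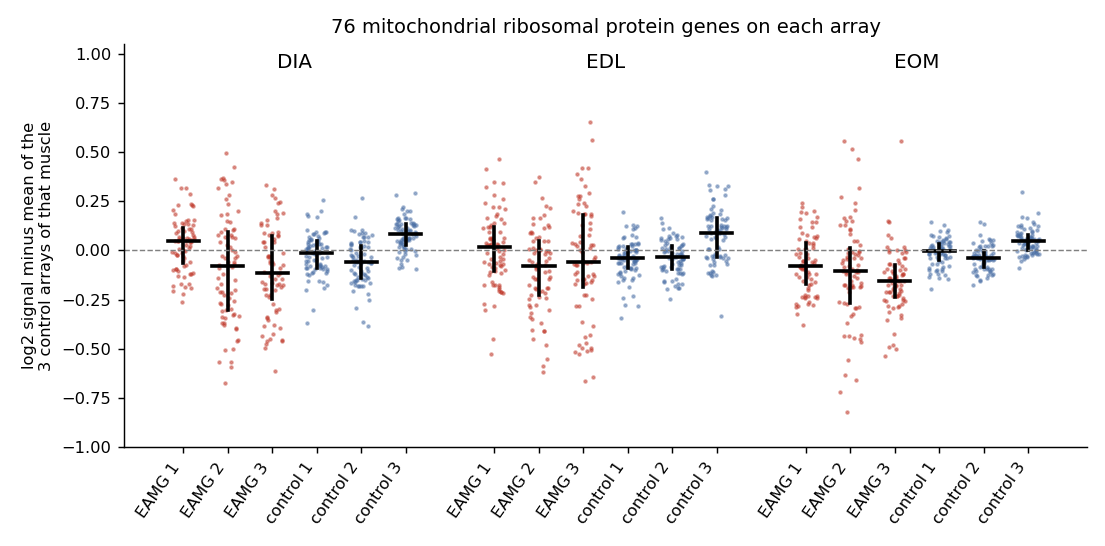
Each point is 1 of the 76 members on 1 array, as log2 signal minus the mean of the 3 control arrays of that muscle (y axis), for the 18 arrays (x axis, EAMG in red and control in blue). Horizontal black lines are medians and vertical black lines the interquartile range. All 3 EOM EAMG medians lie below the 3 EOM control medians, and the control points are drawn against their own mean, which narrows them.

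Counted by whether the 3 EAMG arrays lay wholly on one side of the 3 control arrays, 22 of 76 members (28.9%) were lower and 2 (Mrps6 and Mrpl52) higher in EOM, where 11.9% of all tested probe sets were lower and 12.5% higher. In DIA 10 members were lower and 6 higher, where 11.1% of all were lower and 13.3% higher. In EDL 12 members were lower and 6 higher, where 12.4% of all were lower and 12.6% higher. The member counts stood near the background in DIA and EDL, and above it on the lower side in EOM. Among the probe sets at 400 or more on every array, 13.1% were lower without overlap in EOM.

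Within the family the downward side lay mainly with the large subunit. Its 51 members had a median log2 change of -0.13 in EOM, -0.08 in DIA and -0.07 in EDL, and the 25 members of the small subunit had -0.06 in EOM, 0.04 in DIA and 0.03 in EDL. In EOM 18 of the 22 members that were lower without overlap belonged to the large subunit and 4 to the small. These are 35.3% of the large and 16.0% of the small subunit members, against 11.9% of all tested probe sets. No test was made between the subunits.

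In EDL, Mrps35, a small subunit protein found only in mitochondrial ribosomes, rose. Its signal was 2294, 2228 and 2543 on the EDL EAMG arrays, against 1662, 1707 and 1801 on the EDL control arrays. Every EAMG array lay above every control array, and the log2 change was 0.45 ± 0.11 (SE, limma, adjusted p = 0.0312). The signal was 2674, 2862 and 2680 on DIA EAMG arrays against 2105, 2409 and 2297 on DIA control arrays, and 1714, 1994 and 1431 on EOM EAMG arrays against 1784, 1857 and 1836 on EOM control arrays. In DIA the groups did not overlap either (log2 change 0.27, limma adjusted p = 0.196), and in EOM they overlapped (-0.10, limma adjusted p = 0.748). The EDL call was lost when EDL EAMG array 2 or 3 or EDL control array 1 or 2 was left out, with an adjusted p of up to 0.123, and without EDL EAMG array 2, the array of high slow fibre signal, it was 0.0673 at a log2 change of 0.49.

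Mrpl13, the counterpart of a bacterial large subunit protein, fell in EDL. Its signal was 2726, 2491 and 2286 on the EDL EAMG arrays, against 3210, 3301 and 3008 on the EDL control arrays. The groups did not overlap, and the log2 change was -0.35 ± 0.10 (SE, limma, adjusted p = 0.0495). This value sat at the threshold. It was 0.0508 with the replicate number as a block and 0.0589 without both arrays that were low in poly-A signal, both short of a call, and the call held in 3 of the 18 fits that each left out 1 array. Mrpl13 had 3028, 2922 and 2943 units on EOM EAMG arrays against 3438, 3528 and 3780 on EOM control arrays, again without overlap (log2 change -0.27, limma adjusted p = 0.229). In DIA the groups overlapped, and the log2 change was -0.07.

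The next largest changes in EDL did not pass. Mrpl18, a large subunit protein, had a log2 change of -0.37 ± 0.11 (SE, limma, adjusted p = 0.0667), with 3509, 3032 and 2856 units on EAMG arrays against 4377, 3846 and 3860 on control arrays. Mrps18c, a small subunit protein, had 0.37 ± 0.16 (adjusted p = 0.181), with 1509, 1507 and 1586 units on EAMG arrays against 935, 1192 and 1493 on control arrays. Both separated the EDL groups without overlap. Mrpl18 passed without EDL EAMG array 1 (limma adjusted p = 0.0298), and the change of Mrps18c was 0.20 without EDL control array 1 and 0.54 without EDL control array 3. In DIA the 4 largest changes were those of Mrpl42 (-0.36), mrpl24 (-0.33), Mrps16 (-0.31) and Mrpl35 (-0.31), and none passed. Of these Mrpl35 alone separated the DIA groups, with 2074, 1917 and 1742 units on EAMG arrays against 2375, 2258 and 2443 on control arrays (limma adjusted p = 0.0874). It passed with quantile normalization or without DIA EAMG array 1, and mrpl24 also passed without that array (-0.51, limma adjusted p = 0.0414). Single arrays moved the other values. Without DIA EAMG array 2, the one of low poly-A signal, the changes were -0.25 for Mrpl42, -0.21 for mrpl24 and -0.13 for Mrps16, and without DIA EAMG array 1 they were -0.55 for Mrpl42 and -0.45 for Mrps16.

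In EOM the 4 largest changes were those of Mrpl42 (-0.53), mrpl24 (-0.50), Mrps31 (0.44) and Mrpl12 (-0.39), with limma adjusted p-values of 0.186, 0.133, 0.380 and 0.250. Mrpl42, a large subunit protein found only in mitochondria, had 5183, 3437 and 4186 units on EOM EAMG arrays against 6240, 5460 and 6541 on EOM control arrays. For mrpl24, which has a bacterial counterpart in the large subunit, the signals were 2665, 1971 and 2294 on EAMG arrays against 3248, 3138 and 3349 on control arrays. Mrpl12, which forms the stalk of the large subunit that contacts translation factors, had 3928, 3414 and 3287 on EAMG arrays against 4510, 4494 and 4867 on control arrays. These 3 were lower on every EOM EAMG array than on every EOM control array. Mrps31, a small subunit protein, had 1066, 1363 and 1364 on EAMG arrays against 843, 832 and 1139 on control arrays, and its groups overlapped.

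**Figure D2:**
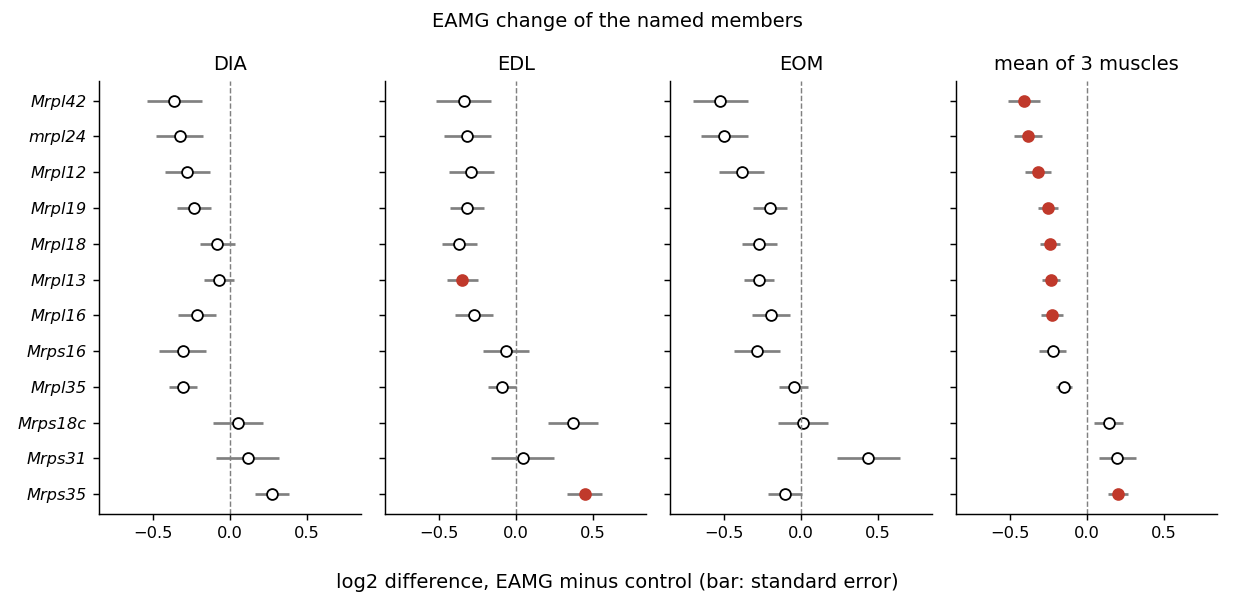
Log2 difference of EAMG minus control (x axis) for the 12 named members (rows) in DIA, EDL, EOM and as the mean of the 3 muscles, each with its standard error. Filled red points have a limma adjusted p under 0.05. Only Mrpl13 and Mrps35 are filled in a single muscle, both in EDL. In the mean 8 of the 12 are filled, which follows from the choice of rows, as the 8 largest members called there were included. Of all 76 members 9 were called in the mean.

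Averaged over the 3 muscles, which uses all 18 arrays, limma called 9 of 76 members, 8 lower and 1 higher, where it called 9.93% of all tested probe sets lower and 10.5% higher. The share of members called lower, 10.5%, stood near that background, and the share called higher, 1.32%, below it. All 8 kept probe sets that fell belonged to the large subunit, which is 15.7% of its 51 members. The mean contrast takes the muscles of a treatment as independent, which shared rats would make untrue.

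Among the kept probe sets Mrpl42 had the largest mean fall, -0.41 ± 0.10 on the log2 scale (SE, limma, adjusted p = 0.0128). Its signal was 5726, 3781 and 4038 on DIA EAMG arrays against 6095, 4787 and 6354 on DIA control arrays, and 4288, 4006 and 3481 on EDL EAMG arrays against 4726, 4634 and 5516 on EDL control arrays. The groups overlapped in DIA and not in EDL or EOM. For mrpl24 the mean change was -0.38 ± 0.09 (adjusted p = 0.00807). It had 3732, 2443 and 2627 units on DIA EAMG arrays against 3827, 3189 and 3874 on DIA control arrays, and 2385, 2428 and 2138 on EDL EAMG arrays against 2711, 2799 and 3139 on EDL control arrays. Again DIA alone overlapped. Mrpl12 fell by 0.32 (adjusted p = 0.0170), with 5409, 4226 and 4003 units on DIA EAMG arrays against 5333, 5604 and 5463 on DIA control arrays, which overlapped.

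The other 5 falls were smaller. Mrpl19 had a mean change of -0.25, Mrpl18 of -0.24, Mrpl13 of -0.23, Mrpl16 of -0.23 and Mrpl4 of -0.17, each a large subunit protein with a bacterial counterpart, with limma adjusted p-values between 0.0117 and 0.0354. Mrps35 was the single member that rose in the mean (0.21 ± 0.07 SE, adjusted p = 0.0383). Calls for mrpl24, Mrpl42, Mrpl12, Mrpl19, Mrpl18 and Mrpl13 were made in all 18 fits that left out 1 array, whereas Mrpl16 was called in 7 and Mrps35 in 6 of them. Among all of these, mrpl24 alone was still called without a signal minimum. With a replicate block within each muscle, Mrps35 (limma adjusted p = 0.0513), Mrpl16 (0.0634) and Mrpl4 no longer passed. With both arrays that were low in poly-A signal left out, 5 members were called. These were mrpl24, Mrpl13, Mrpl18 and Mrpl19, all lower, and Mrpl23, higher, whereas Mrpl42, Mrpl12, Mrpl16, Mrpl4 and Mrps35 no longer passed. Without DIA EAMG array 1, 16 members were called. Mrpl4 lies outside the rule for named members and is given because it completes the list of calls.

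**Figure D3:**
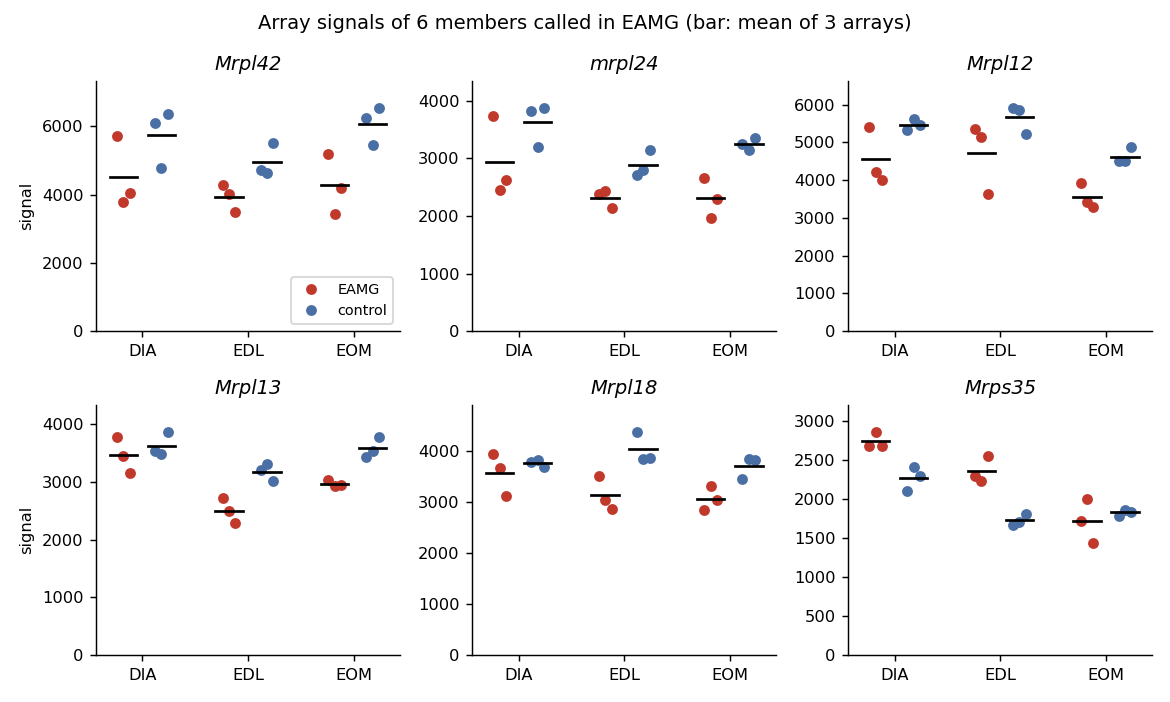
Array signals (y axis, linear, from 0) of 6 members called in an EAMG comparison, by muscle (x axis), with EAMG arrays in red left of control arrays in blue and a bar at the mean of the 3 arrays. Mrpl42 and mrpl24 have lower EAMG means in all 3 muscles, and Mrps35 has higher EAMG means in DIA and EDL.

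Whether EAMG acted differently on the members in the 3 muscles was tested as the difference of its changes. No member passed for EOM minus EDL, EOM minus DIA or DIA minus EDL, where limma called 0.106%, 0.0163% and 0.0163% of all tested probe sets. At an unadjusted p under 0.05 there were 4 members (5.26%), 5 members (6.58%) and 0 members, against 10.1%, 6.50% and 5.31% of all tested probe sets. Largest was Mrps6 for EOM minus EDL, at 0.57 (95% interval 0.20 to 0.94, limma adjusted p = 0.254), followed by Mrps35, at -0.55 (95% interval -0.90 to -0.21, adjusted p = 0.239). The EDL calls of Mrps35 and Mrpl13 are therefore not shown to be particular to EDL.

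Marker sums of other cell types differed between the groups beside these results. Summed over the 5 measured red blood cell genes, the signal was 2229 to 3801 on EOM EAMG arrays against 9022 to 12628 on EOM control arrays, 2333 to 5507 against 13472 to 20264 in DIA, and 1433 to 2950 against 3890 to 5765 in EDL, without overlap in any muscle. The 7 fibroblast genes summed to 24586 to 33658 on DIA EAMG arrays against 40540 to 47135 on DIA control arrays. The 9 measured genes of the orbital gland and epithelium list summed to 4691 to 10261 on EOM EAMG arrays against 1530 to 2699 on EOM control arrays. Of these genes, 2 were at 400 or more on all EOM EAMG arrays and 1 on all EOM control arrays. In DIA this list summed to 2408 to 5476 on EAMG arrays and 2776 to 8408 on control arrays, so it is not particular to the orbit. The 13 muscle fibre genes summed to 247129 to 411141 on EOM EAMG arrays against 327421 to 353871 on EOM control arrays. In EOM the 6 measured endothelium genes summed to 5329 to 5719 on EAMG arrays against 6127 to 6987 on control arrays, and the 10 slow fibre genes to 85266 to 99569 against 104301 to 109256. In DIA the muscle fibre genes summed to 290341 to 320221 on EAMG arrays against 325666 to 346443 on control arrays, the slow fibre genes to 191654 to 224146 against 228037 to 244693, and the 10 macrophage genes to 11606 to 15843 against 7433 to 10794. Apart from the muscle fibre genes in EOM, none of these sums overlapped between groups. The part of these shifts in the members' changes was not tested.

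Other genes of mitochondrial protein synthesis were counted by the same fit. Of all tested probe sets it called 10.5% higher and 9.93% lower in the mean of the muscles. In single muscles it called 3.22% lower in EDL and 1.53% higher in DIA. Among 6 further genes listed with the ribosome but without the Mrp name, 1 was called in EDL, Gadd45gip1, a large subunit protein. Its signal averaged 2043 ± 365 on EDL EAMG arrays and 2859 ± 76.1 on EDL control arrays (SD, n = 3 each), a log2 change of -0.50 ± 0.13 (SE, limma, adjusted p = 0.0327). In the mean of the muscles Gadd45gip1 (-0.30) and Kgd4, once called Mrps36 and known as a subunit of 2-oxoglutarate dehydrogenase (-0.16), were called lower. Of 16 tested translation factors, only Pnpt1, an RNA-processing enzyme, was called, and only in the mean (-0.33). Of 20 tested assembly and rRNA modification genes, only Mettl15, which methylates the small subunit rRNA, was called, again in the mean (-0.39). Among 12 tested tRNA synthetase genes, Kars1, which charges lysine tRNA in both cytosol and mitochondria, averaged 5810 ± 379 on DIA EAMG arrays and 4027 ± 329 on DIA control arrays (SD, n = 3 each), with a log2 change of 0.53 ± 0.12 (SE, limma, adjusted p = 0.0256). In the mean Kars1 (0.38) and Iars2 (0.27) were called higher, and Fars2 (-0.40) and Qrsl1 (-0.32) lower.

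Among 16 tested transcription and biogenesis factors, Ppargc1b, a coactivator of mitochondrial genes, fell by 1.28 on the log2 scale in EDL (limma adjusted p = 0.00302) and by 1.01 in EOM (adjusted p = 0.0167). Perm1, a muscle regulator of oxidative genes, fell by 1.11 in EDL (adjusted p = 0.0353), and Myc rose there by 1.66 (adjusted p = 0.00712). These changes were larger than that of any member.

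The respiratory chain and ATP synthase, of which the mitochondrial ribosome makes some core subunits, are otherwise nuclear-encoded. Their 77 nuclear genes with a probe set changed by a median of -0.25 on the log2 scale for DIA (76 below 0), -0.23 for EDL (72 below 0) and -0.20 for EOM (75 below 0). Of the 74 tested, limma called 6 lower in EDL, 0 in DIA and 0 in EOM, and 39 in the mean of the muscles, with none called higher. Over all tested probe sets the share called lower was 3.22% in EDL and 9.93% in the mean. Medians of the mitochondrial ribosome were nearer 0 in every muscle. The 48 cytosolic ribosomal proteins had medians of 0.19 for EDL, 0.10 for DIA and -0.07 for EOM. No test was made between the lists.

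**Figure D4:**
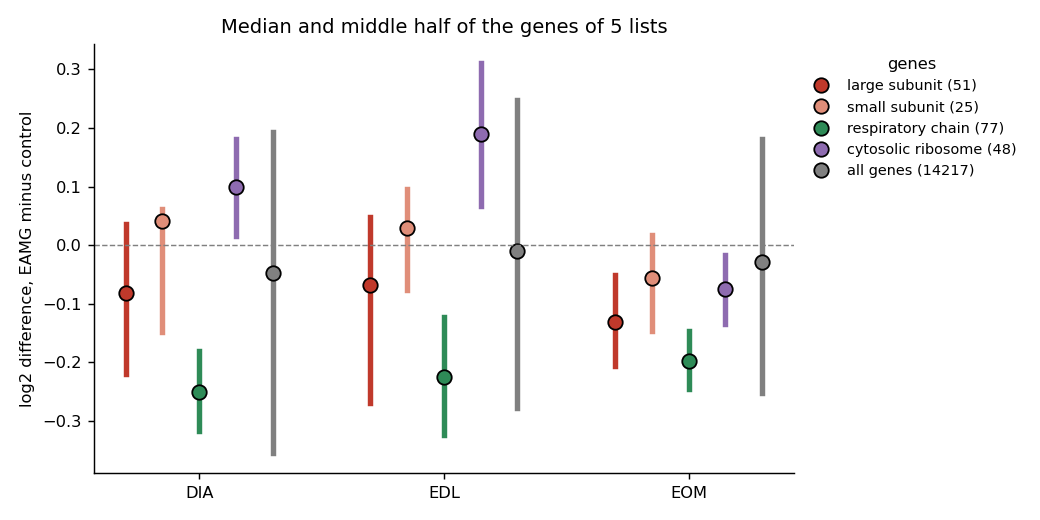
Median log2 difference of EAMG minus control (y axis, points) and interquartile range (bars) in each muscle (x axis) for 5 lists, with the number of genes in brackets. The respiratory chain medians lie between -0.25 and -0.20, below those of both ribosomal subunits, and the list of all genes has the widest bars.

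The second question was how the members differ between muscles without EAMG. On control arrays the differences between muscles were larger than the EAMG changes. For EOM minus EDL, limma called 18 of 76 members, 12 higher and 6 lower, where it called 23.1% of all tested probe sets higher and 18.3% lower. For EOM minus DIA it called 10, of which 4 were higher and 6 lower, against 10.6% and 10.7% of all. For DIA minus EDL it called 9 higher and 1 lower, against 14.1% and 10.8% of all. Counts below background came in all 3 comparisons, most of all for members lower in DIA than in EDL. The median log2 difference was 0.03 for EOM minus EDL, -0.04 for EOM minus DIA and 0.11 for DIA minus EDL, against 0.13, 0.02 and 0.11 over all genes with 1 symbol in the same order. Over the probe sets at 400 or more on every array it was -0.03, -0.02 and -0.01. The sign of the members' median turned without EDL control array 2 for EOM minus EDL (-0.00) and without DIA control array 3 for EOM minus DIA (0.02).

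Mrps6, a small subunit protein with a bacterial counterpart, differed most. Its signal was 2487, 2318 and 2536 on EOM control arrays, against 1479, 1501 and 1611 on DIA control arrays and 1055, 1082 and 1218 on EDL control arrays. No 2 muscles overlapped. The log2 difference was 1.13 ± 0.12 for EOM minus EDL (SE, limma, adjusted p = 4.5e-06), 0.68 for EOM minus DIA (adjusted p = 0.000905) and 0.45 for DIA minus EDL (adjusted p = 0.0136). It was the only member with a difference of 2-fold or more between control muscles. The same order held on the EAMG arrays, with 2704, 3498 and 2707 units in EOM, 1432, 1406 and 1437 in DIA, and 775, 966 and 997 in EDL, and there the difference of EOM minus EDL was 1.70 (limma adjusted p = 9.04e-08). In RefSeq the Mrps6 gene overlaps Slc5a3, a myo-inositol transporter, and the strand of the probes was not analysed here.

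Mrps25, a small subunit protein found only in mitochondrial ribosomes, had 2928, 2930 and 2988 units on EOM control arrays, against 1841, 1804 and 2244 on DIA and 1400, 1719 and 1853 on EDL control arrays. EOM stood above both other muscles, which overlapped each other. The log2 difference was 0.84 ± 0.12 for EOM minus EDL (SE, limma, adjusted p = 4.53e-05) and 0.59 for EOM minus DIA (adjusted p = 0.00174). Mrps5 went the other way. This small subunit protein, whose bacterial counterpart acts in decoding, had 1178, 1011 and 1249 units on EOM control arrays, against 1385, 1618 and 1636 on DIA and 1981, 1899 and 2169 on EDL control arrays. No 2 muscles overlapped, and the difference was -0.82 ± 0.14 for EOM minus EDL (SE, limma, adjusted p = 0.000331). For EOM minus DIA it was -0.43 (limma adjusted p = 0.0406), called in 13 of 18 fits with a single array left out.

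A further set of members separated EDL from the other muscles. Mrpl46, a large subunit protein without bacterial counterpart, had 1100, 1019 and 1153 units on EOM control arrays and 1039, 968 and 1011 on DIA control arrays, against 674, 681 and 716 on EDL control arrays. EDL lay below both, which overlapped, with 0.66 ± 0.09 for EOM minus EDL (SE, limma, adjusted p = 6.11e-05) and 0.54 for DIA minus EDL (adjusted p = 0.000882). Mrps16, a small subunit protein with a bacterial counterpart, had 4114, 4030 and 4967 units in EOM and 3828, 3374 and 3798 in DIA, against 2249, 2492 and 2614 in EDL. Mrpl14, a large subunit protein that faces the small subunit, had 1855, 1612 and 1747 units in EOM and 2080, 1553 and 1639 in DIA, against 1087, 945 and 1227 in EDL. For both, EOM and DIA each lay wholly above EDL on control arrays, by 0.83 and 0.58 (Mrps16) and by 0.68 and 0.69 (Mrpl14) on the log2 scale, all called by limma. Mrpl48, which overlaps Rab6a in the annotation, was called for the same pairs, at 0.62 and 0.48. Its call for DIA minus EDL was made in 14 of 18 fits with a single array left out.

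**Figure D5:**
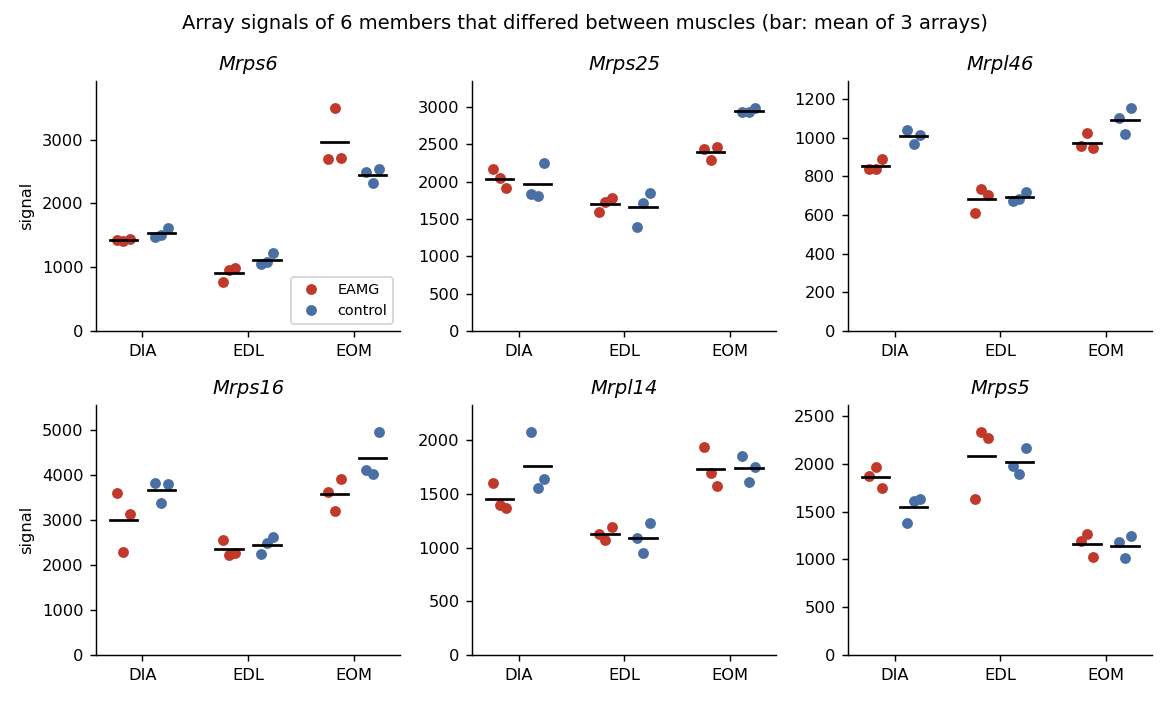
Array signals (y axis, linear, from 0) of 6 members that differed between muscles, by muscle (x axis), with EAMG arrays in red left of control arrays in blue and a bar at the mean of the 3 arrays. Mrps6 is highest in EOM and lowest in EDL in both treatments, Mrps5 is lowest in EOM, and Mrpl46, Mrps16 and Mrpl14 are lowest in EDL.

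DIA stood apart from both other muscles for a few members. Mrps18a, a large subunit protein despite its name, had 986, 1083 and 1087 units on DIA control arrays, against 1456, 1526 and 1717 on EOM and 1394, 1565 and 1504 on EDL control arrays. DIA lay below both without overlap, by 0.57 for EOM minus DIA (limma adjusted p = 0.00642) and -0.50 for DIA minus EDL (adjusted p = 0.0143). Mrpl36, the counterpart of a small zinc-binding bacterial protein, had 2423, 2129 and 2615 units in DIA, against 1688, 1576 and 1686 in EOM and 1746, 1596 and 2019 in EDL. It was above both, at -0.53 for EOM minus DIA (adjusted p = 0.00224) and 0.42 for DIA minus EDL (adjusted p = 0.0104), and its gene overlaps Ndufs6 in RefSeq. Mrpl57, a large subunit protein of mitochondria, showed the same pattern (-0.41 and 0.30, both called). Mrpl39, at 0.51, was called higher, and Mrpl52, at -0.39, lower in EOM than in DIA. With a single array left out, Mrpl39 was called in 17 of 18 fits and Mrpl52 in 13.

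Smaller falls were shared by EOM against both muscles. Mrpl33 had 4866, 4456 and 4940 units on EOM control arrays, against 6475, 6468 and 5882 on DIA and 6431, 6595 and 5850 on EDL control arrays, without overlap between EOM and either. Its log2 difference was -0.40 in both comparisons (limma adjusted p = 0.0362 and 0.0200). With a single array left out, Mrpl33 was called in 12 of 18 fits against DIA and in 15 of 18 against EDL. Both calls were lost with quantile normalization and without a signal minimum. Mrps15, which in bacteria binds the small subunit rRNA early in assembly, was lower by a similar size (-0.34 and -0.38, both called). For EOM minus EDL, Mrpl47 (-0.56), Mrpl15 (-0.33) and Mrpl54 (-0.31) were also called lower. Mrpl15 passed in 5 of 18 fits with a single array left out, with an adjusted p of up to 0.177, and was lost with quantile normalization, with the replicate block and without the low poly-A arrays, and Mrpl47 was called in 14 of 18. The 7 others called higher were Mrpl48, Mrpl49, Mrpl41, Mrpl55, Mrpl3, Mrpl22 and Mrpl58, at 0.27 to 0.62. Mrpl58 is a peptidyl-tRNA hydrolase that frees stalled ribosomes.

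The differences between muscles were also taken on the EAMG arrays, which are separate arrays but were part of the same fit. Each gene had the same standard error for its control and its EAMG differences. A gene of low spread is thus more easily called on both, so the shares below are not those of an independent repeat. Of the 18 members called for EOM minus EDL on control arrays, 12 were called in the same direction on EAMG arrays, which is 66.7% of the control calls and 57.1% of the 21 EAMG calls. For EOM minus DIA 9 of 10 were called again, which is 90.0% of the control calls and 64.3% of the 14 EAMG calls, and for DIA minus EDL 6 of 10, which is 60.0% of both lists. Over all tested probe sets limma called 46.1%, 27.6% and 22.4% on the EAMG arrays, in either direction. These are not shares of control calls that came again, which are not given over all probe sets, so the member shares have no background. Fits of each comparison on its own arrays called fewer members on the EAMG arrays. The counts were 12 for EOM minus EDL, 6 for EOM minus DIA and 3 for DIA minus EDL, in place of 21, 14 and 10. Across the 76 members the differences on both sets of arrays correlated with r = 0.83, 0.81 and 0.76, as a description across genes, which are not replicates. Mrps6, Mrps5 and Mrps15 kept their EOM differences against both muscles on EAMG arrays, where Mrps6 was also called for DIA minus EDL (0.65). Mrps25 was not called for EOM minus DIA there. On EOM EAMG arrays it had 2436, 2287 and 2470 units, below all 3 EOM control arrays, with a log2 change of -0.30 (limma adjusted p = 0.262).

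A single probe set stood for each gene, and 18 of the 76 genes had more than 1. Of the 24 other probe sets, 14 passed the filter. In the EAMG comparisons they had the sign of the kept probe set in 8 of 14 cases in DIA, 7 in EDL, 6 in EOM and 9 in the mean of the muscles. No member called in an EAMG comparison had another tested probe set, so these calls have no second measurement. In the mean, limma called 2 of the other probe sets lower where the kept one was not called. For Mrpl40, a large subunit protein, the other probe set had a log2 change of -0.43 (limma adjusted p = 0.0156) and the kept one -0.09. For Mrps9, a small subunit protein, it was -0.18 (limma adjusted p = 0.0286) and -0.04. For EOM minus EDL on EAMG arrays, 2 of the 4 other probe sets of called members shared the sign of the kept one. Of the 76 genes, 17 overlap another protein-coding gene and 21 have a named pseudogene in RefSeq, whose transcripts the probes were not checked against.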

How the data were processed

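RNA from 18 pools of rat muscle was hybridised to Affymetrix rat 230 arrays. The deposited values are linear signal intensity for each probe set, which the authors summarised with GCOS 2.0 and scaled on each array to the same target, so a change common to all genes would be removed. Signals were taken to log2 without further normalization. Probe sets other than array controls with 400 or more on at least 1 of the 18 arrays were kept, 12238 of 31042. One limma model (version 3.58.1 in R 4.3.3) with a mean for each of the 6 groups gave all contrasts, with Benjamini-Hochberg adjustment over all tested probe sets within a contrast and a threshold of 0.05. The model was tested on simulated data. Figures were drawn with matplotlib 3.10.9.

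Symbols came from the platform's probe-to-gene annotation. The members and the gene lists were chosen with earlier results of these data known. Named members are those called in an EAMG contrast of a muscle (with the largest changes added up to 4), the 8 largest called in the mean, the 5 largest rises and falls called between control muscles, and the 3 brightest and dimmest. Groups of 3 arrays limit the precision.

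Same-numbered EAMG and control arrays of a muscle correlated, in their deviations from group means, with r of -0.03 to 0.34 over 9 pairs, 7 of them over 0.1. All 3 pairs passed 0.1 in EDL, and 2 of 3 in DIA and in EOM. Between EAMG and control arrays of different numbers the highest r was 0.0958. Same-numbered arrays of 2 muscles of a treatment had r of -0.20 to 0.47 over 18 pairs, 9 of them over 0.1. With different numbers the highest r between 2 muscles was 0.24. The methods say that the study was repeated for the replicates, but no source used here says whether equal numbers mark the same repeat, so the replicate block was an alternative. The other alternatives were no signal minimum, a minimum on 3 arrays, quantile normalization, 100 added to each signal, separate fits, array weights, and leaving out each array or the 2 arrays of low poly-A signal. A block within each muscle was added after the data were seen.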

Additional observations from a re-analysis of the deposited data

How the results depend on the processing

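No named member changed direction under any alternative. Medians of the members moved by less than the spread between replicates, but those near 0 changed sign. Array weights turned that for EAMG in EDL to 0.00. Leaving out 1 array turned it to 0.01 in EDL (without EDL control 3), and on control arrays to -0.00 for EOM minus EDL (without EDL control 2) and 0.02 for EOM minus DIA (without DIA control 3). Counts of called members did move. Without a signal minimum the count fell to 0 for EAMG in EDL, 1 for the mean over muscles, 10, 4 and 2 for EOM minus EDL, EOM minus DIA and DIA minus EDL on control arrays, and 11, 6 and 2 for the same contrasts on EAMG arrays. That setting tests more probe sets. Fits of each comparison on its own arrays gave 0 for EAMG in EDL and 12, 6 and 3 for the contrasts on EAMG arrays, and were not run for the mean or for differences between muscles. Quantile normalization gave 1 for EAMG in DIA and 15, all lower, for the mean. Array weights gave 22 for DIA minus EDL on control and 6 on EAMG arrays. When both arrays with little poly-A signal were left out, the counts were 1 for EAMG in EDL, 5 for the mean, and 8 and 6 for EOM minus DIA and DIA minus EDL on EAMG arrays. Apart from these constructions, the cause was not tested.

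With the replicate number as a block, 1 member was called for EAMG in EDL, also with the block within each muscle, and 14 for the mean. The block within each muscle gave 8 for the mean, of which 6 were among the 9, and lost Mrps35, Mrpl16 and Mrpl4. On control arrays the block lost Mrpl15, Mrpl22, Mrpl3 and Mrpl58 for EOM minus EDL. Other counts stayed within 1.5 times.

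Leaving out 1 array gave 0 to 2 called members for EAMG in DIA, 0 to 4 in EDL, 0 to 0 in EOM and 6 to 16 for the mean, and 0 for every difference of EAMG changes. It gave 11 to 19, 6 to 11 and 4 to 11 on control arrays for EOM minus EDL, EOM minus DIA and DIA minus EDL, and 15 to 22, 7 to 16 and 6 to 10 on EAMG arrays. The lowest counts came without EDL control 1, DIA control 2 and DIA control 3 on control arrays. The median of the members in EOM stayed between -0.13 and -0.08, that in DIA between -0.10 and -0.01, and that in EDL between -0.07 and 0.01. Over all settings of the named members, 1054 values kept their side of the threshold, 124 lost it and 4 gained it.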

Other observations

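Slc5a3, whose gene overlaps Mrps6 in RefSeq, was looked at after the values of Mrps6 were seen. Another of its probe sets had 1 to 75 units and was not tested. On EAMG arrays the tested probe set was higher in EOM than in EDL by 0.74 on the log2 scale, and than in DIA by 1.16 (limma adjusted p = 0.00512 and 0.000335). It had 727, 521 and 544 units there in EOM, against 391, 390 and 290 in EDL and 289, 225 and 286 in DIA. Outside EOM it reached 400 on EDL control array 2 alone, so it passed the filter mainly through the muscle where it was high. On control arrays its differences were 0.36 and 0.49 (limma adjusted p = 0.143 and 0.0786). The EAMG change of Slc5a3 in EOM was 0.44 (limma adjusted p = 0.321). Whether the overlap has a part in the signal of Mrps6 was not tested.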
